A study of Mus musculus with 2 samples.

Results

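The S100 genes encode a family of small calcium-binding proteins, and 10 of them (S100a1, S100a4, S100a6, S100a8, S100a9, S100a10, S100a11, S100a13, S100a16 and S100b) were followed in beta cells of CSE-KO and CSE-WT mice. Members were the gene probes whose name in the array files is 1 of these symbols, which gave 13 probes of 55681, with 2 probes each for S100a1, S100a4 and S100a16 and 1 for the others. The 10 genes had been picked with their intensities on these same arrays in view, so every difference below describes the data and none is tested. CSE-KO beta cells came from C57BL/6J mice with a knockout of CSE, cystathionine gamma-lyase, a hydrogen sulfide-producing enzyme encoded by Cth. CSE-WT beta cells came from wild-type C57BL/6J mice and were the control. Mice of both genotypes were 6 months old and had been fed a high-fat diet. Total RNA of each genotype was labelled with Cy3 and hybridised to 1 Agilent whole-genome array, so nothing shown has a replicate check. The number of animals behind each sample and the extent of the deletion are not given in the sources used here.

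S100 proteins carry a pair of EF-hand loops. In most of them calcium binding turns a helix outward and exposes a surface that grips target proteins such as annexins, myosin and membrane receptors. Most act as dimers inside the cell, and some, above all the S100a8 and S100a9 pair, are also released and act on cell-surface receptors. In pancreas, S100b is known from the glial cells that wrap islets, S100a8 and S100a9 from neutrophils and monocytes, and S100a4 from fibroblasts and macrophages. In the mouse, the genes named S100a lie on chromosome 3 and S100b lies on chromosome 10.

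Of the 13 probes, 4 share a stretch of 10 letters, TTCNAGGAGT with N for any base. They are shown because S100a4 and S100a6, the members that differed most, are among them and because shared letters bear on whether a probe could bind a relative's transcript. Each is 60 bases long and is written 5′ to 3′ as in the array files, with the shared stretch in capitals. They lie at chr3:90315191-90315250 on the minus strand for S100a1, and on the plus strand at chr3:90409734-90409793 for S100a4, chr3:90418160-90418219 for S100a6 and chr3:90473778-90473837 for S100a8 (mm9).
S100a1: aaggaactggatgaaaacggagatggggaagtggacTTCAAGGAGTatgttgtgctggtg
S100a4: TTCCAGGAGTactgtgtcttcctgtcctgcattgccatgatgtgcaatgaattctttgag
S100a6: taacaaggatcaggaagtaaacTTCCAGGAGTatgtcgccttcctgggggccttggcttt
S100a8: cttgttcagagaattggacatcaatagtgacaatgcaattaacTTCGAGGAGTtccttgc
No other stretch of 10 letters with 1 open position occurred in the probes of as many members, and it was chosen for that. On either strand it occurred in 42 of all 55681 gene probes (0.0754%). Outside it the 4 probes differ. Over all 75 pairs of probes to different members, the longest identical run was 11 bases, between S100a4 and S100a6, and the median was 6 bases. Probes were compared with each other and not with transcripts. These runs therefore do not show whether a probe binds a relative's transcript.

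Levels are given as a scaled level, the log2 intensity of a probe minus the 75th percentile over all gene probes of its array, which was 540 intensity units on the CSE-KO array and 519 on the CSE-WT array. A probe counted as measured where the scanner software marked it well above background on both arrays. Where a gene had several measured probes, the brightest over the 2 arrays stood for it, and 22139 genes were measured. The 2 probes of Cth lay on chromosome 3 at 157557667 to 157557726 and 157560183 to 157560242 (mm9). They had intensities of 3.15 and 3.68 on the CSE-KO array, against 13.5 and 12.8 on the CSE-WT array. None of the 4 values was well above background. Whether these probes lie in the deleted part is not known here, so they do not settle the genotype labels. Beta-cell RNA was abundant in both samples. Ins1 had a scaled level of 9.81 on the CSE-KO array and 9.92 on the CSE-WT array. Glucagon RNA was abundant as well, with Gcg at 9.39 on the CSE-KO array and 9.52 on the CSE-WT array, as was RNA of the acinar enzyme gene Cpa1 at 6.85 on the CSE-KO array and 6.84 on the CSE-WT array. Both samples are labelled as beta cells, but they held RNA of other pancreatic cells, in which S100 genes may also be transcribed. In such bulk samples, fewer cells of a type and less RNA per cell cannot be told apart.

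Of the 10 members, 8 genes with 11 probes were measured. S100a4 and S100a6 were about 2-fold higher in CSE-KO, while the other 6 measured members differed by 1.23-fold or less in either direction. S100a4, at 2.25-fold higher, was the 1 member past 2-fold, where 0.718% of all measured genes were that much higher, and 0 members were 2-fold lower, where 0.89% of all measured genes were. S100a6 lay just short of it at 1.93-fold. At 1.5-fold or more, 2 members were higher, where 3.09% of all measured genes were, and 0 were lower, where 2.5% of all measured genes were. Over the 8 measured members 4 were higher and 4 lower, where 10776 of all 22139 measured genes were higher and 11363 lower. The median difference over these members was 0.02 log2 units, beside -0.01 over all measured genes. These counts cover measured members only and follow from a contrast that was in view when the genes were picked, so nothing is read from them.

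**Figure D1:**
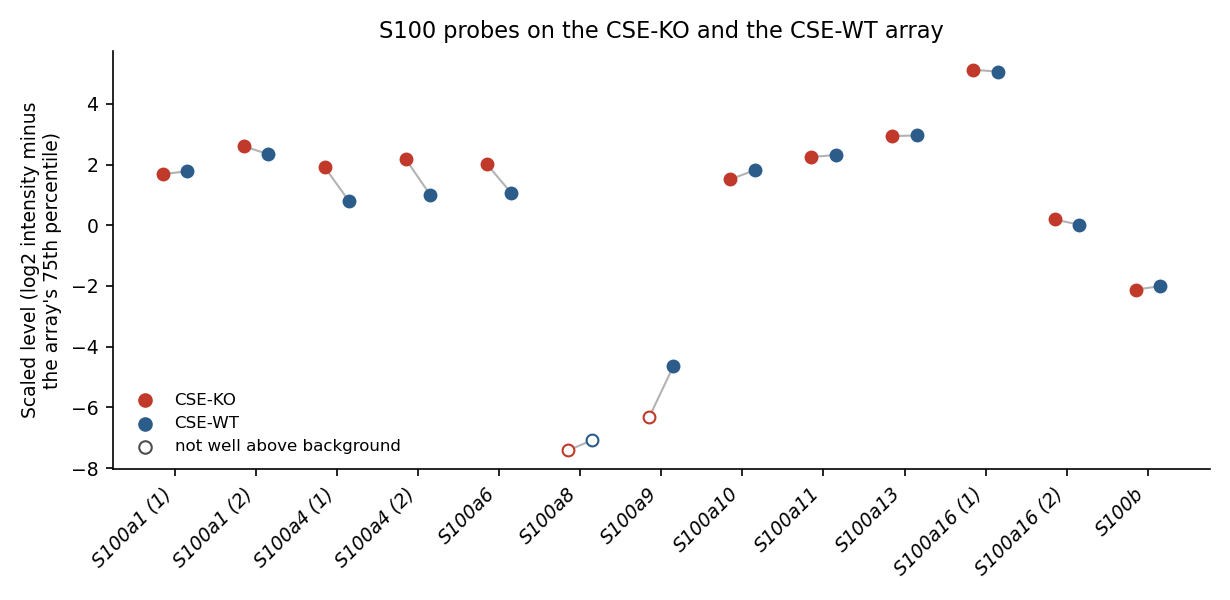
Scaled level (y axis, log2 intensity minus the array's 75th percentile) of each of the 13 S100 probes, with the CSE-KO array left and the CSE-WT array right within each probe; numbers in brackets tell probes of 1 gene apart in order of position, and open circles were not well above background. The 2 S100a4 probes and the S100a6 probe sit about 1 unit higher in CSE-KO, and heights of different probes cannot be compared with each other.

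S100a4, also known as metastasin or fibroblast-specific protein, binds non-muscle myosin and is linked to cell motility. Its probe at chr3:90409908-90409967 had an intensity of 2426 on the CSE-KO array, against 1038 on the CSE-WT array. Its other probe, the one printed above, had an intensity of 2021 on the CSE-KO array, against 895 on the CSE-WT array. Both probes were thus brighter in CSE-KO by nearly the same amount, 1.17 log2 units for the first and 1.12 for the other. Spot noise, taken from probes printed 10 times on each array, gave an SD of 0.07 for a difference at this level. That SD comes from the spread of repeated spots within each slide. It leaves out differences between the arrays in amplification, labelling, hybridisation or scanning, and it says nothing about animals. The authors' deposited table holds 1984 for CSE-KO and 914 for CSE-WT at the printed probe, and 2392 for CSE-KO and 1059 for CSE-WT at the other one.

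S100a6, known as calcyclin, was first described as a transcript of growth-stimulated cells. Its single probe, printed above, had an intensity of 2168 on the CSE-KO array, against 1082 on the CSE-WT array. The difference was 0.95 log2 units with a spot SD of 0.07. In the authors' deposited table it has 2140 for CSE-KO and 1106 for CSE-WT. With 1 probe, the size of this difference has no check from another part of the transcript.

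**Figure D2:**
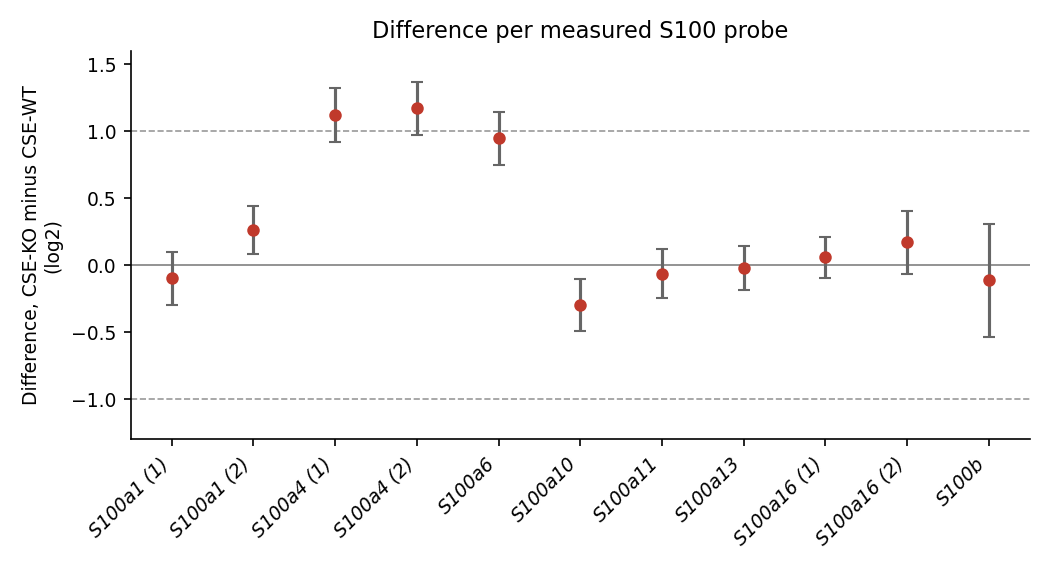
Difference between the arrays (y axis, CSE-KO minus CSE-WT, log2) for the 11 measured S100 probes, with bars of 3 times the spot SD to either side and dashed lines at 2-fold. The 2 probes of S100a4 and the probe of S100a6 lie between 0.95 and 1.17, and the other 8 lie between -0.30 and 0.26.

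Among the 11069 measured genes above the median level, to which both belong, 11 had a difference at least as high as S100a4 (S100a4 itself included) and 17 at least as high as S100a6. At this brightness 0.126% of genes were 2-fold or more higher and 0.659% were 1.5-fold or more higher. Over all measured genes the numbers were 92 for S100a4 and 186 for S100a6, since dim genes scatter more widely.

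**Figure D3:**
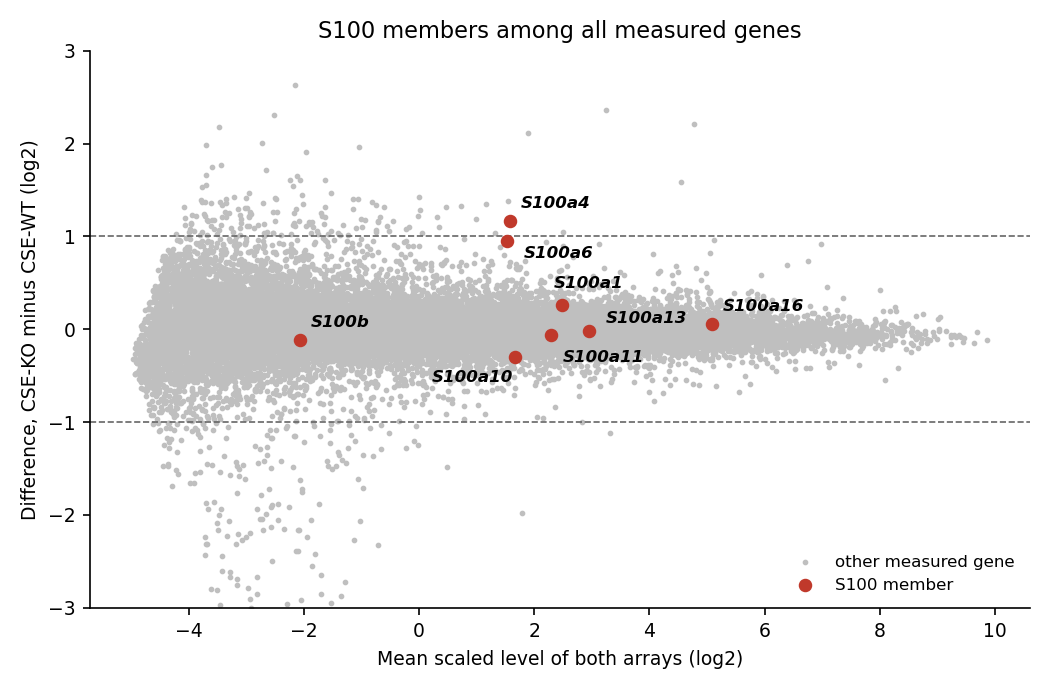
Mean scaled level of both arrays (x axis, log2) against the difference CSE-KO minus CSE-WT (y axis, log2) for the 22139 measured genes in grey and the 8 measured S100 members in red, with dashed lines at 2-fold; 24 genes lie beyond the axis at 3 units. S100a4 and S100a6 stand above the band of genes of similar level, and the other 6 members lie inside it.

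The remaining intracellular members differed little. S100a1, which is best known from heart muscle, where it binds the calcium pump and the ryanodine receptor, had 2 probes that disagreed. The probe printed above had 3284 on the CSE-KO array and 2634 on the CSE-WT array, a difference of 0.26 log2 units with a spot SD of 0.06. The other, at chr3:90314959-90315018, had 1733 on the CSE-KO array and 1785 on the CSE-WT array, a difference of -0.10 with a spot SD of 0.07. The mean of both probes was 0.08, so no direction can be given for this gene.

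S100a16, a widely expressed member, also had 2 probes. The one at chr3:90346529-90346588 had 18826 on the CSE-KO array and 17380 on the CSE-WT array, a difference of 0.06 log2 units with a spot SD of 0.05. The one at chr3:90346875-90346934 had 616 on the CSE-KO array and 527 on the CSE-WT array, a difference of 0.17 with a spot SD of 0.08. Neither exceeded 3 times its spot SD. S100a13, which takes part in the export of FGF1, had 4140 on the CSE-KO array and 4040 on the CSE-WT array (chr3:90328442-90328501). Its difference of -0.02 turned sign under 3 of 11 other ways of processing the data, so the arrays held nearly equal levels.

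S100a10 and S100a11 are the annexin-binding members. S100a10 does not bind calcium and forms a stable complex with annexin A2 at membranes, and S100a11 pairs with annexin A1. S100a10 had 1543 on the CSE-KO array and 1823 on the CSE-WT array (chr3:93368437-93368496), which made it the lowest measured member at -0.30 log2 units (1.23-fold lower, spot SD 0.07). S100a11 had 2569 on the CSE-KO array and 2584 on the CSE-WT array (chr3:93330022-93330081), a difference of -0.06 with a spot SD of 0.06. By more than 3 times the spot SD, 3 members were higher, where 9.46% of all measured genes were, and 1 (S100a10) was lower, where 10.4% of all measured genes were. The 3 were S100a4, S100a6 and S100a1, and S100a1 counted through its brighter probe alone, since its other probe was lower in CSE-KO.

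S100b, the glial member, was dim. It had an intensity of 124 on the CSE-KO array and 129 on the CSE-WT array (chr10:75723783-75723842). The difference of -0.11 log2 units was smaller than its spot SD of 0.14.

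S100a8 and S100a9 form calprotectin, the abundant calcium- and zinc-binding complex of neutrophils. S100a8 did not exceed background in either sample, with an intensity of 3.15 on the CSE-KO array and 3.84 on the CSE-WT array. Of 308 negative-control spots, 129 on the CSE-KO array and 161 on the CSE-WT array were at least as bright. S100a9 (chr3:90496573-90496632) was well above background on the CSE-WT array alone, with 6.74 on the CSE-KO array and 20.9 on the CSE-WT array. Set against the lowest signal that still counted as well above background on the CSE-KO array, this gave a nominal bound of 1.5-fold lower in CSE-KO. That bound lies within 3 times the spot SD at this level, 0.80 log2 units, so it is no firm limit. On the CSE-WT array 9 of the 308 negative-control spots were as bright as the S100a9 probe, and on the CSE-KO array 4 were. The pair of partner genes therefore had 1 weak signal between them, in 1 sample.

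Most S100a genes sit side by side on chromosome 3. From the S100a1 to the S100a9 probes the cluster spans 182 kb (90314959 to 90496632, mm9) with 12 probed genes, of which 7 are members. S100a4 and S100a6 are near neighbours, as 8.19 kb separate the S100a4 and S100a6 probes. Between them lies S100a5, which had 165 on the CSE-KO array and 164 on the CSE-WT array, a difference of -0.05 log2 units. On the other side of S100a4, S100a3 had 3249 on the CSE-KO array and 2906 on the CSE-WT array, a difference of 0.11. The higher level thus showed at S100a4 and S100a6 and was not seen at the gene between them or at the next one before them. S100a2 had 101 on the CSE-KO array and 75.9 on the CSE-WT array, a difference of 0.35 with a spot SD of 0.18. The last 2 non-members in the cluster, S100a7a and S100a14, did not exceed background in either sample. Of the 3 genes on each side of the cluster, Ilf2, Snapin and Chtop on the S100a1 side were measured with 8 probes, whose differences lay between -0.23 and 0.15. Pglyrp4, S100a7l2 and Pglyrp3 on the S100a9 side were not measured. Cth lies on the same chromosome, 67.1 Mb from S100a4.

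**Figure D4:**
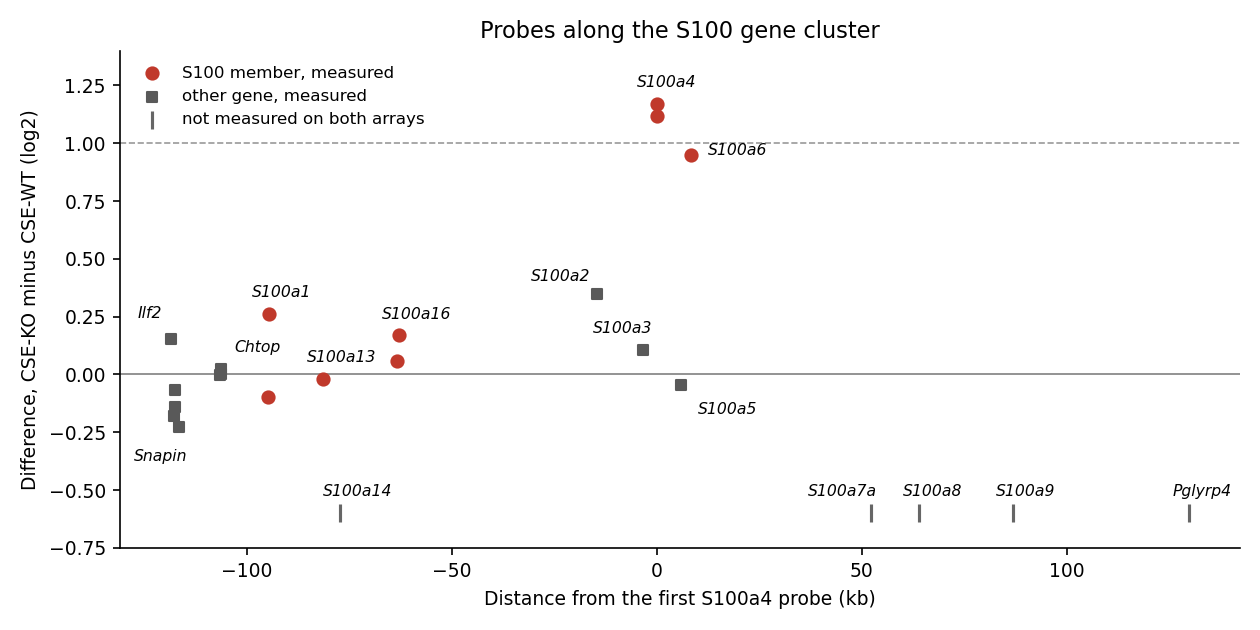
Distance of each probe from the first S100a4 probe (x axis, kb) against its difference CSE-KO minus CSE-WT (y axis, log2) along the S100 cluster, with members as red circles, other genes as grey squares and a dashed line at 2-fold; ticks along the bottom mark probes that were not well above background on both arrays. S100a4 and S100a6 stand near 1 on either side of S100a5, which lies at -0.05. The flanking genes S100a7l2 at 482 kb and Pglyrp3 at 1426 kb, neither measured, are not drawn.

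Promoter windows of S100a4, S100a5 and S100a6 are printed because the outer genes differed between the arrays and the middle one did not. They are RefSeq sequences of build GRCm38.p6, each of 300 bases from 250 before to 50 after the annotated start, on the plus strand, at chr3:90603520-90603819 for S100a4, chr3:90608272-90608571 for S100a5 and chr3:90612644-90612943 for S100a6. Capitals mark matches on either strand to a TATA box (TATAAA), an AP-1 site (TGANTCA) or an E-box (CACGTG), motifs that do not overlap here.
S100a4: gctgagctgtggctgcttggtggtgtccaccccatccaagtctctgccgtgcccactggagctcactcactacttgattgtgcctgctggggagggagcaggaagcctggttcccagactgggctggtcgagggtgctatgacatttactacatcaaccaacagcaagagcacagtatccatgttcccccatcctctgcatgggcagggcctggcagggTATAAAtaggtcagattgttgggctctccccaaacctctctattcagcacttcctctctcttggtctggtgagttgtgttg
S100a5: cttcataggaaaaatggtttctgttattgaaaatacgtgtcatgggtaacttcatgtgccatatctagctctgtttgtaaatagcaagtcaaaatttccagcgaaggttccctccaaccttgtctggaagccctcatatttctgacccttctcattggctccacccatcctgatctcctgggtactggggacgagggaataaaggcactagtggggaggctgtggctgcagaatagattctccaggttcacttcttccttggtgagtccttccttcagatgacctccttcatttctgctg
S100a6: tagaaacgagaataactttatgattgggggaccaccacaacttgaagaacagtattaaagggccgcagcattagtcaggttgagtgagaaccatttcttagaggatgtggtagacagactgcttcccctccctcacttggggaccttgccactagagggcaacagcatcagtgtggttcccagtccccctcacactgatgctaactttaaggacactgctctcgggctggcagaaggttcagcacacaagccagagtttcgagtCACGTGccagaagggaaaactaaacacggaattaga
S100a4 holds TATAAA from base 220 of its window, as do 13.6% of 32851 RefSeq promoter windows. S100a6 holds CACGTG from base 265, as do 7.15% of the windows, and no TATAAA. The S100a5 window holds neither, and none of these 3 windows holds TGANTCA, which is in 7.81% of all windows. The windows of S100a4 and S100a6 thus share none of the letters searched. Promoter windows were found for 9 of the 10 members, with 10 windows in all. TATAAA was in those of S100a4, S100a8 and S100a9, TGANTCA in those of S100a11 and S100a16, and CACGTG in those of S100a6 and S100a11.

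Known partners and receptors of S100 proteins were listed, and 21 of 28 were measured. Of these, 10 were higher and 11 lower, with a median difference of -0.00 log2 units whose sign turned under 8 of 11 alternatives. None reached 2-fold. Annexin A2 (Anxa2), the partner of S100a10, differed by -0.06, and annexin A1 (Anxa1), the partner of S100a11, differed by -0.06. The non-muscle myosin heavy chain Myh9, a target of S100a4, differed by 0.19, and the S100a6-binding protein gene Cacybp by 0.05. In this list only Cybb, a subunit of the phagocyte NADPH oxidase that S100a8 and S100a9 assist, passed 1.5-fold, with a scaled level of -3.22 on the CSE-KO array and -3.88 on the CSE-WT array. Its difference of 0.66 was within 3 times its spot SD of 0.26. Of the receptor genes for released S100 proteins, Ager, which encodes RAGE, did not exceed background in either sample, and Tlr4 exceeded it in CSE-KO alone. Bsg, which encodes the S100a9-binding receptor basigin, was measured on both arrays at scaled levels of 4.65 in CSE-KO and 4.54 in CSE-WT, a difference of 0.10. Cd36 was at -2.01 in CSE-KO and -2.08 in CSE-WT, a difference of 0.07 that was smaller than its spot SD of 0.14.

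Relatives outside the 10 members were also listed. Of 14 other S100, fused-type S100 and S100-binding genes, 5 were measured (S100a3, S100a5, S100z, S100pbp and Crnn), with 1 higher and 4 lower and a median of -0.23 log2 units. The median was -0.05 with the mean of all measured probes of a gene and -0.10 without genes below the median level. S100a2, described above with a difference of 0.35, is not in this list. None of the 5 reached 1.5-fold in either direction. S100z differed by -0.30 with a spot SD of 0.05, and Crnn by -0.31 with a spot SD of 0.27. Of 47 other EF-hand genes 43 were measured, with 15 higher, 28 lower and a median of -0.06, and none at 2-fold. The EF-hand gene past 1.5-fold was Lcp1, the leukocyte actin-bundling protein, at 1.59-fold higher.

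The genes nearest to S100a4 in scaled level over the 2 arrays were Gm11559, S100a6 and Hspb8, at distances of 0.16, 0.17 and 0.31 log2 units. Those nearest to S100a6 were Hspb8, Me3 and S100a4, at 0.14, 0.17 and 0.17. With 2 arrays this says that their signals had a similar height and difference and no more. Gm11559 differed by 1.38 log2 units, Hspb8 by 0.80 and Me3 by 0.72.

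Some markers of stellate cells, fibroblasts and macrophages were also higher in CSE-KO, while others were not. For the list counts here and below, 10776 of all 22139 measured genes were higher in CSE-KO and 11363 lower. Of 11 measured stellate and fibroblast markers, 10 were higher in CSE-KO, with a median difference of 0.35 log2 units (0.08 when dim members, those below the median of all measured genes, were left out). Among those not measured, Lum and Fn1 exceeded background in CSE-KO alone, and Pdgfra did so in neither sample. Col3a1 was 2.06-fold, Dcn 1.98-fold and Col1a1 1.79-fold higher. Among brighter markers, Col1a2 differed by 0.44 and Thy1 by 0.35 log2 units, while Vim and Acta2 each differed by 0.08 and Tagln by -0.16. The summed intensity of the list, in units of each array's 75th percentile, was 21.4 on the CSE-KO array and 21.0 on the CSE-WT array. Such a sum follows its brightest probe, here Tagln at a scaled level of 3.60 in CSE-KO and 3.75 in CSE-WT. Heights of different probes cannot be compared, so the list sums here and below say little about a list as a whole. Of 16 measured macrophage markers, 12 were higher, with a median of 0.37 and sums of 78.9 on the CSE-KO array and 62.2 on the CSE-WT array. Itgax was 1.86-fold and Fcer1g 1.54-fold higher, and Lyz1 differed by -0.68 log2 units. Of the defining macrophage markers Cd68 differed by 0.30, while Adgre1 at 0.13 and Csf1r at 0.06 stayed within 3 times their spot SDs of 0.09 and 0.05.

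Proliferation genes, a list drawn up with their earlier values known, were higher in 9 of 9 measured members with a median of 1.17. All 9 were at least 2-fold higher, where 0.718% of all measured genes were. Their sums were 15.1 on the CSE-KO array and 6.90 on the CSE-WT array, and Mki67 was 2.69-fold and Ccnb2 2.49-fold higher. Ductal markers, 9 of 11 measured, had 6 higher and 3 lower and a median of 0.01. Their sums were 132.2 on the CSE-KO array and 132.9 on the CSE-WT array. Of the defining ones, Krt7 had scaled levels of 3.34 in CSE-KO and 3.60 in CSE-WT, a difference of -0.26 with a spot SD of 0.05. Krt19 differed by 0.23 with a spot SD of 0.27, and Sox9 did not exceed background in either sample. Muc1 differed by -0.68 with a spot SD of 0.27, and Spp1 by 0.53 with a spot SD of 0.07. What part stellate cells, macrophages or dividing cells had in the S100a4 and S100a6 differences was not tested.

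Markers that go with the other members were mixed. Of 10 Schwann and glia markers 7 were measured, with 5 higher and 2 lower, a median of 0.21 (-0.06 when the dim members were left out), and sums of 17.6 on the CSE-KO array and 18.9 on the CSE-WT array. Mbp, the brightest of them, had scaled levels of 3.75 in CSE-KO and 3.92 in CSE-WT. Sox10 was 1.32-fold higher, while S100b differed by less than its spot SD. Of 15 neutrophil markers 7 were measured, with 2 higher and 5 lower, a median of -0.06, and sums of 53.7 on the CSE-KO array and 48.9 on the CSE-WT array. The brightest were Csf3r (4.87 in CSE-KO, 4.69 in CSE-WT) and Elane (4.54 in CSE-KO, 4.44 in CSE-WT). Among the defining ones Ly6g differed by -0.21 and Elane by 0.10, and Mpo exceeded background in CSE-KO alone. Beta-cell markers had a median of -0.09, whose sign turned under 3 of 11 alternatives. Alpha-cell markers were lower in 7 of 7 with a median of -0.38.

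**Figure D5:**
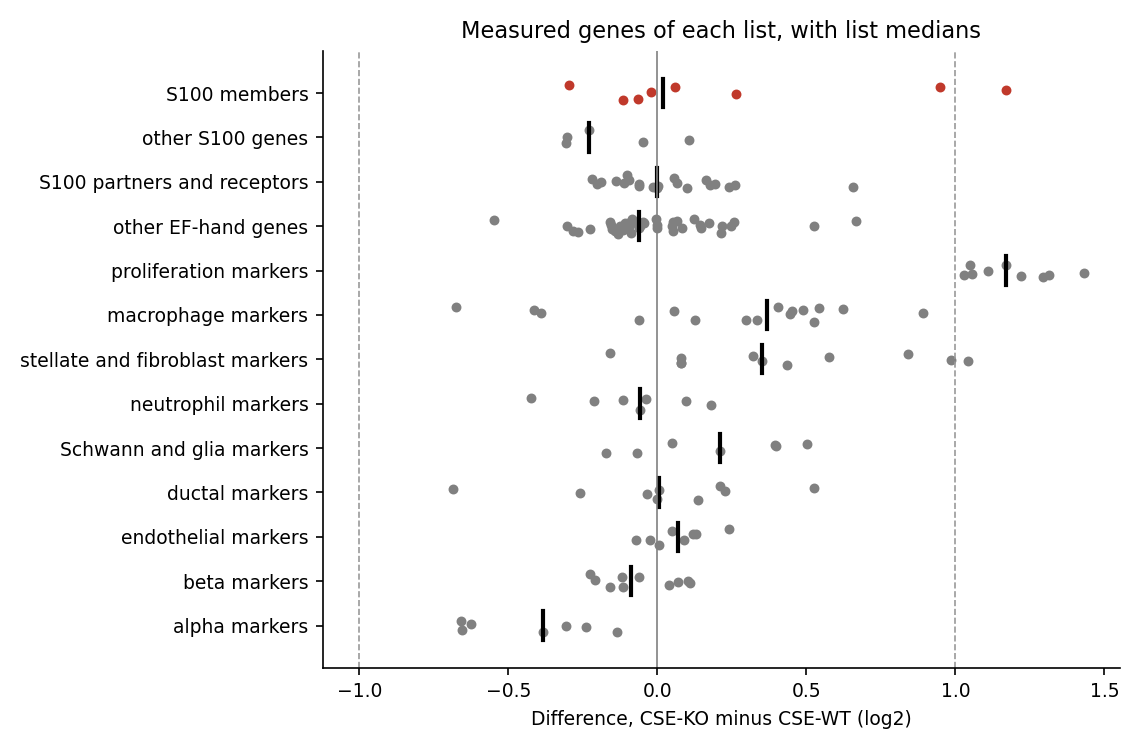
Difference CSE-KO minus CSE-WT (x axis, log2) of every measured gene in the S100 members (red) and in 12 of the other lists (grey), with a black bar at each list's median and dashed lines at 2-fold. Of the 8 measured S100 members, 2 lie near 1 and the other 6 scatter around 0.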

How the data were processed

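RNA of 1 CSE-KO and 1 CSE-WT sample was measured on 1 array each. TRIzol-extracted, column-purified RNA was amplified and labelled with a low-input kit, per the labels' protocols. Spots were quantified as a detrended intensity with Agilent Feature Extraction 10.7.1.1 on build mm9, per the file headers (9.5.1.1 per the submitters' processing notes). In the authors' deposited intensity table, on a linear scale, both columns have a median of 37.7 and their sorted values differ by at most 0.813 units, as after quantile normalization. Each follows its own array (Pearson r = 0.9999 across probes), uncentred, and further steps are not given in the sources used here.

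Outlier spots were left out (169 in CSE-KO, 139 in CSE-WT), and no spot was saturated. Log2 intensity was averaged per probe and the array's 75th percentile over gene probes subtracted. Of the probes, 59.6% were well above background in CSE-KO and 57.0% in CSE-WT. The number of arrays limits the precision, and with 1 per genotype a size of 2-fold took the place of a test. The spot SD of a difference came from the spread within each array of the 40 probes nearest in level among those printed 10 times. Symbols followed RefSeq by accession (27235 probes), symbol (3581) or older symbol (565), and 24300 probes kept the name in the files. Alternatives used other scalings, normexp (limma 3.58.1, offset 50), the deposited table, other probe rules and removal of local patches. R 4.3.3, Python 3.11.15 and pandas 2.3.3 were used.

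The members and the gene lists were chosen with earlier results of these data known. Besides the members and the genes of their cluster (S100 probes at most 100 kb apart, with 3 genes on each side), the text names in each list up to 4 genes at 1.5-fold or more, or the largest 2, the defining markers, and the 3 genes nearest in level to S100a4 and to S100a6. Other listed genes, among them known partners and relatives of the members and brighter markers of some lists, were chosen after their values were seen. Lists of acinar (median -0.02), delta and PP (-0.12), lymphocyte (0.01), endothelial (0.07), erythroid (-0.54), adipocyte (-0.45, 1 gene) and mesothelial (-0.04) markers were also run.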

Additional observations from a re-analysis of the deposited data

How the results depend on the processing

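Under 11 alternatives S100a4 stayed past 2-fold in all, with differences between 1.14 and 1.20 log2 units, and S100a6 lay between 0.95 and 1.01, past 2-fold in 2 of them. Some alternatives could not change these values. Dropping the dim filter, keeping genes above the median level and removing patches leave such bright probes as they are. The mean over probes leaves the single S100a6 probe as it is. The deposited table nearly repeats quantile normalization, with 1.18 for S100a4 under each. The count of members 2-fold higher, 1 as reported, was 2 under normexp with either scaling and with a size of 1.5-fold. It was 3, S100a1 included through 1 of its 2 probes, with 3 times the spot SD, an alternative chosen after seeing the data. The count 2-fold lower, 0 as reported, was 1 without a filter on dim probes, which lets S100a9 in, and 1 with 3 times the spot SD (S100a10). The median over members lay between -0.04 and 0.07. Its sign turned without the filter on dim probes.

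Over all genes, 159 were 2-fold higher and 197 lower. Normexp gave 36 and 38 higher and 97 and 96 lower with 75th-percentile and quantile scaling, no dim filter gave 1128 and 1436, and genes above the median level gave 14 and 3. A size of 1.5-fold gave 684 and 553, and 3 times the spot SD gave 2094 and 2298. Adding 50 units before the log in normexp shrinks differences of dim probes by construction, and the cause of the other shifts was not tested. Of 176 medians of the other lists under alternatives, 22 turned sign. No member probe lay in a local patch of the slide (median difference of surrounding spots between -0.19 and 0.10). No paired analysis was possible because each genotype had 1 array. S100a8 and S100a9 are too dim for a fold between the arrays, and the bound given for S100a9 lies within 3 times its spot SD.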
